A study of Homo sapiens with 6 samples.

Results

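The genes described here are 9 factors of pluripotency and self-renewal: POU5F1 (also called OCT4), its retrogene POU5F1B, SOX2, NANOG, KLF4, LIN28A, LIN28B, SALL4 and BMI1. They were taken from the deposited expression table by Ensembl identifier, and 6 of the 9 were among its 27576 genes. POU5F1B, NANOG and SALL4 had no row in the table used here and counted as not detected. The smallest row of the table held 2 reads over all libraries together. The cells were Kasumi-1, a human acute myeloid leukaemia line that carries the RUNX1-RUNX1T1 fusion, so the series holds a single leukaemia. All cultures were grown in RPMI medium with 20% fetal bovine serum. For 72 h the control group received 0.5% bovine serum albumin (BSA), and the IL-10 group received recombinant human interleukin-10 at 10 ng/ml. The labels do not say whether the IL-10 cultures also received BSA. Each group had 3 RNA-seq libraries, but nothing in the labels says that they were grown as separate cultures. The p-values therefore reflect the spread among these libraries, which could be technical.

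POU5F1, SOX2 and NANOG are transcription factors that bind many enhancers together and keep embryonic stem cells undifferentiated, and KLF4 is used with POU5F1 and SOX2 to reprogramme somatic cells. SALL4 is a zinc-finger factor of the same network that recruits the NuRD deacetylase complex. LIN28A and LIN28B are RNA-binding proteins of early development that block maturation of the let-7 microRNAs. BMI1 is a subunit of Polycomb repressive complex 1, is known for repressing the INK4 locus, and is required for self-renewal of blood-forming and leukaemic stem cells. In adult tissue most of these genes other than BMI1 and KLF4 are silent or restricted to few cell types, and POU5F1 has several pseudogenes whose sequence is close to its own.

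That closeness bears on every POU5F1 value below, so a stretch of 90 bases of its coding sequence is shown with the same stretch of the 4 pseudogenes that had reads. The sequences were read 5′ to 3′ from GENCODE 29 transcripts (GRCh38), with capitals marking bases that differ from POU5F1. The POU5F1 stretch lies in exon 5 of 5 of transcript POU5F1-201, at chr6:31164778-31164867 on the minus strand. Those of the pseudogenes lie at chr12:8133948-8134037 (POU5F1P3, minus strand), chr1:155433997-155434086 (POU5F1P4, plus strand), chr10:68010388-68010477 (POU5F1P5, minus strand) and chr3:128674819-128674908 (POU5F1P6, minus strand).
POU5F1: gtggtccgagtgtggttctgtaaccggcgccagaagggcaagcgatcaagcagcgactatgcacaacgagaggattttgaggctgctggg
POU5F1P3: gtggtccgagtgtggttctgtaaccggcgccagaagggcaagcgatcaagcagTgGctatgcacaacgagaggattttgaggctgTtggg
POU5F1P4: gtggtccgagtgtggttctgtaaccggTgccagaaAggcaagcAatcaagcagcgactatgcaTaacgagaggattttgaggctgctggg
POU5F1P5: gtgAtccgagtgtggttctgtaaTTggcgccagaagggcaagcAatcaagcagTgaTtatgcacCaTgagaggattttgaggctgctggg
POU5F1P6: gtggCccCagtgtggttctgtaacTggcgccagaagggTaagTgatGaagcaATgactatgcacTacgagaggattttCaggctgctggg
In this stretch POU5F1P3 differed from POU5F1 at 3 bases, POU5F1P4 at 4, POU5F1P5 at 8 and POU5F1P6 at 10. Over their whole aligned length the pseudogenes were 98.1%, 97.2%, 93.4% and 90.6% identical to POU5F1-201, in the same order. Of all 50-base windows of POU5F1-201, 63.4% (869 of 1371) occurred letter for letter in another annotated gene, and of all 100-base windows 26.3% (347 of 1321). By gene, 35.5% of the 50-base windows were also in POU5F1B, 30.9% in POU5F1P3 and 22.8% in POU5F1P4. The other members with reads were easier to tell apart: the share of 50-base windows found elsewhere was 2.0% for SOX2, 1.8% for LIN28A, 1.1% for LIN28B and 0.0% for KLF4. Of BMI1 windows 28.2% occurred elsewhere, all of them in the read-through gene COMMD3-BMI1, which had no row. No source used here gives the read length or the treatment of reads with several matches, so POU5F1 counts may hold pseudogene reads, and pseudogene counts POU5F1 reads.

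Recovered depth was 20750115 to 24222897 reads per library, and values below are reads divided by the library's size factor ("normalised reads"). All 10 genes of the blast list had a row, with KIT at 29296 to 54533 normalised reads, CD34 at 11415 to 14919 and the lowest of the list, CD38, at 27.0 to 38.0. IL-10 replicate 2 stood apart. On the first principal component, which held 75.44% of the variance, it lay at 58.96 and the other libraries at -23.62 to 11.48, and it was the library farthest from the mean of the other 5 in 71.6% of the 11605 genes with a mean of at least 50. Both libraries numbered 2 held transcripts of liver: 9 of the 20 liver genes were at 0 in the other 4 libraries and had reads in one or both of these. Across all 21946 genes tested, limma (Benjamini-Hochberg adjusted p under 0.05) called 0 (0.0%) between IL-10 and control. At an unadjusted p under 0.05 it had 344 (1.57%), while edgeR called 0 with 257 unadjusted and DESeq2 0 with 94.

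Among the members BMI1 was the only abundant one. Per kilobase of exon, averaged over the 6 libraries, BMI1 stood at 332 normalised reads (library range 264 to 366), above 87.9% of all genes in the table. POU5F1 followed at 4.27 (2.75 to 6.27), above 36.1% of genes, and SOX2 at 0.831 (0.371 to 1.51), above 15.6%. LIN28A stood at 0.290 (0 to 0.533), KLF4 at 0.265 (0 to 0.815) and LIN28B at 0.0828 (0 to 0.497). BMI1 and POU5F1 lay outside each other's range and outside those of all lower members, in every library. SOX2 overlapped in range with LIN28A, KLF4 and LIN28B, whose order among themselves lies within the spread between libraries. Exon length here counts every annotated exon base of a gene, so levels per kilobase and rankings between genes depend on the annotation. It was 4283 bases for BMI1, against 3428 in transcript BMI1-201, and 2896 for POU5F1, against 1420 in POU5F1-201. Over all libraries BMI1 held 8658 reads and POU5F1 75, of which 37 were in control (95% exact counting interval 26.1 to 51.0) and 38 with IL-10 (26.9 to 52.2). In bulk RNA a low level in all cells and a high level in few cells cannot be told apart, and neither can fewer cells of a type and less RNA per cell. Intervals cover counting error only.

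**Figure D1:**
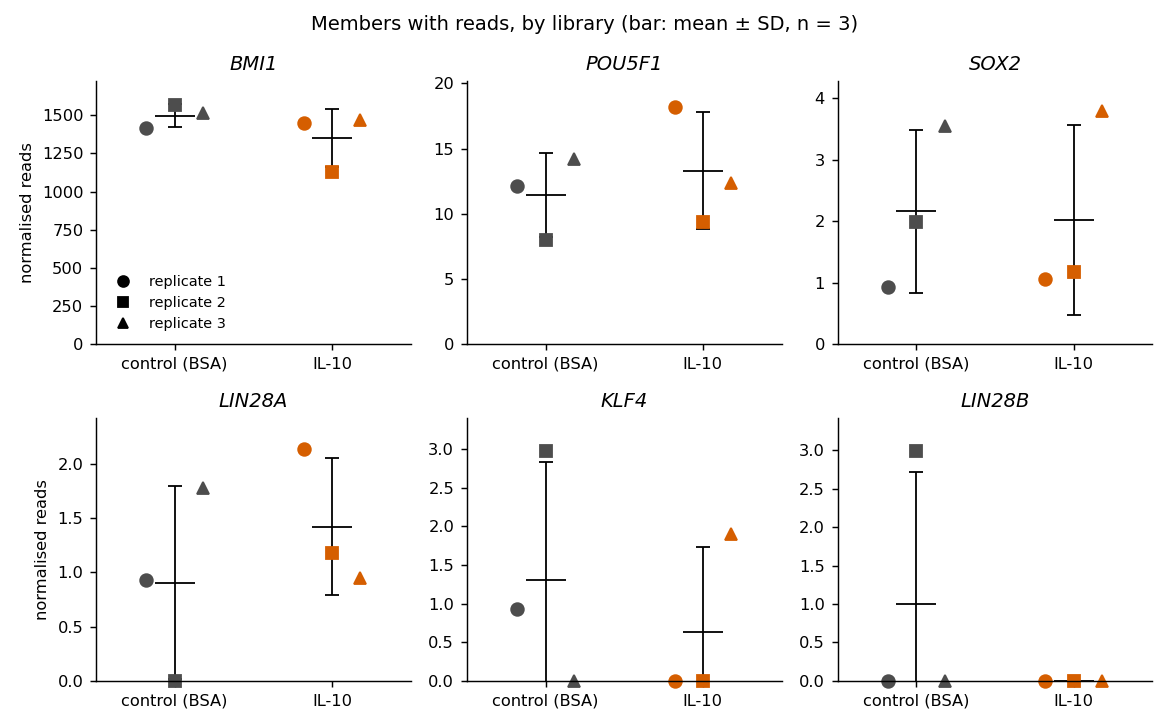
Normalised reads (y axis, linear, a separate scale per gene) of the 6 members with reads in each of the 3 control and 3 IL-10 libraries, with symbols for the replicate number and bars for mean ± SD (n = 3; bars are drawn down to 0 at most). In every panel the control and IL-10 points overlap, and IL-10 replicate 2 is the lowest BMI1 point at 1130.

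POU5F1 (ENSG00000204531, chr6:31164337-31180731, minus strand, protein-coding) was detected in all 6 libraries at a low level. It stood at 12.1, 7.96 and 14.2 normalised reads in control replicates 1 to 3, from 13, 8 and 16 reads. With IL-10 it stood at 18.2, 9.40 and 12.3, from 17, 8 and 13 reads. IL-10 replicate 1 was the highest library and control replicate 2 the lowest, and the groups overlapped. The means were 11.4 ± 3.19 in control and 13.3 ± 4.46 with IL-10 (SD, n = 3). The log2 fold change was 0.19 (SE 0.39, 95% interval -0.69 to 1.07) with an adjusted p of 0.982 in limma, on log2(normalised reads + 1), a scale that understates changes of low genes. Summed over libraries and scaled by the size factors, as are all read ratios here, the ratio of IL-10 to control reads was 1.16, with a counting interval of 0.717 to 1.87. Within the replicate pairs the log2 ratio was 0.55, 0.22 and -0.19. The log2 fold change was -0.03 when control replicate 2 was left out and -0.04 when IL-10 replicate 1 was, so its sign rested on each of these libraries.

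TCF19, on the opposite strand, shares 248 of the 2896 exon bases annotated to POU5F1 (8.6%) and was abundant, at 1290 to 1871 normalised reads per library. No source used here says whether reads were counted by strand, and the part of TCF19 in the POU5F1 counts was not tested. The 90 bases shown above lie outside the exons of TCF19.

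The 4 pseudogenes with a row were lower still, at 0 to 4 reads in any library. POU5F1P3 had 1, 3 and 4 reads in control and 1, 0 and 0 with IL-10. POU5F1P4 had 1, 2 and 2 against 0, 2 and 0, and POU5F1P5 had 0, 4 and 1 against 1, 0 and 2. POU5F1P6 had 1, 3 and 3 against 0, 0 and 1. Summed, the 4 held 2.80, 11.9 and 8.90 normalised reads in control and 2.14, 2.35 and 2.85 with IL-10. Control replicates 2 and 3 lay above all IL-10 libraries, and control replicate 1 lay among them. These were 25 control reads against 7 in the IL-10 libraries, and their ratio, scaled by the size factors, was 0.316 (counting interval 0.115 to 0.751). Of these, POU5F1P3, POU5F1P4 and POU5F1P5 passed the filter on low values, and each had an adjusted p of 0.982 or above in limma. With POU5F1 added, since reads may be assigned to either, the sum was 62 control reads against 45, at a ratio of 0.819 (0.545 to 1.22). The sum held 14.9, 19.9 and 23.1 normalised reads in control and 20.3, 11.8 and 15.2 with IL-10, which overlap. The ratio was 1.16 for POU5F1 alone and 0.819 for the sum, but both counting intervals hold 1, so neither gives a direction. POU5F1B, the gene with the largest share of common 50-base windows, had no row.

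SOX2 (ENSG00000181449, chr3:181711924-181714436, plus strand, a single-exon gene) had 13 reads in all. It held 0.932, 1.99 and 3.56 normalised reads in control and 1.07, 1.18 and 3.80 with IL-10, from 1, 2 and 4 and from 1, 1 and 4 reads. Both libraries numbered 3 were the highest of their group, and the groups overlapped. The log2 fold change was -0.10 (SE 0.60, 95% interval -1.45 to 1.26), with an adjusted p of 0.992 in limma. The read ratio was 0.967, and a difference within its counting interval of 0.268 to 3.36 was not detectable at this depth. The long non-coding gene SOX2-OT, which contains SOX2 in an intron, had at most 2 reads in any library.

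KLF4 (ENSG00000136826, chr9:107484852-107490482, minus strand) had 1, 3 and 0 reads in control and 0, 0 and 2 with IL-10. It missed the filter, which asked for 3 libraries with a value of 1 or more, and was not tested. NANOG and SALL4 had no row, nor did 11 of the 12 relatives of NANOG on the list. The exception, the pseudogene NANOGP5, had 3, 3 and 0 reads in control and 1, 0 and 0 with IL-10.

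LIN28A (ENSG00000131914, chr1:26410778-26429722, plus strand) had 1, 0 and 2 reads in control and 2, 1 and 1 with IL-10, all at or under the floor of 3 reads per library, so no fold is given. It passed the filter, with an adjusted p of 0.982 in limma. LIN28B (ENSG00000187772, chr6:104936616-105083332, plus strand) had 3 reads, all in control replicate 2, and 0 in the other 5 libraries. A count of 0 allows up to 3 reads in each of those, so LIN28B in control replicate 2 was not above what the others allow. Control replicate 2 was also the library highest in liver transcripts: albumin (ALB) stood at 112 normalised reads there, at 31.7 in the IL-10 library numbered 2, and at 0 to 0.890 in the other 4. The summed level of all 20 liver genes was 3201 to 4071 in control and 3277 to 3555 with IL-10, most of it EPCAM (1487 to 1942) and SERPINA1 (879 to 1664).

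Other genes of early development followed the same 2 libraries. These, and the liver genes ALB, AFP and APOB plotted with them, were chosen after their values were seen. IGF2BP1, an RNA-binding protein and let-7 target, had 19.9 normalised reads in the control library numbered 2 and 15.3 in the IL-10 library of that number, against 0 to 1.78 elsewhere. SOX9, a factor of epithelial progenitors and cartilage, stood at 14.9 and 11.8, against 0 to 0.950 elsewhere. TDGF1, a NODAL co-receptor of pluripotent cells, stood at 3.98 and 1.18 and was at 0 in the other 4. The 1.18 in IL-10 replicate 2 is the value of 1 read there, under the floor of 3. POU5F1 counted alone was lowest in control replicate 2, and IL-10 replicate 2 was the lowest of its group. Its 4 pseudogenes, with which it may share reads, summed to 11.9 in control replicate 2, their highest, and to 2.35 in IL-10 replicate 2. POU5F1 and the 4 together stood at 19.9 and 11.8 in these libraries, within a range of 11.8 to 23.1. The part of liver transcripts in the LIN28B, IGF2BP1, SOX9 and TDGF1 counts was not tested.

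**Figure D2:**
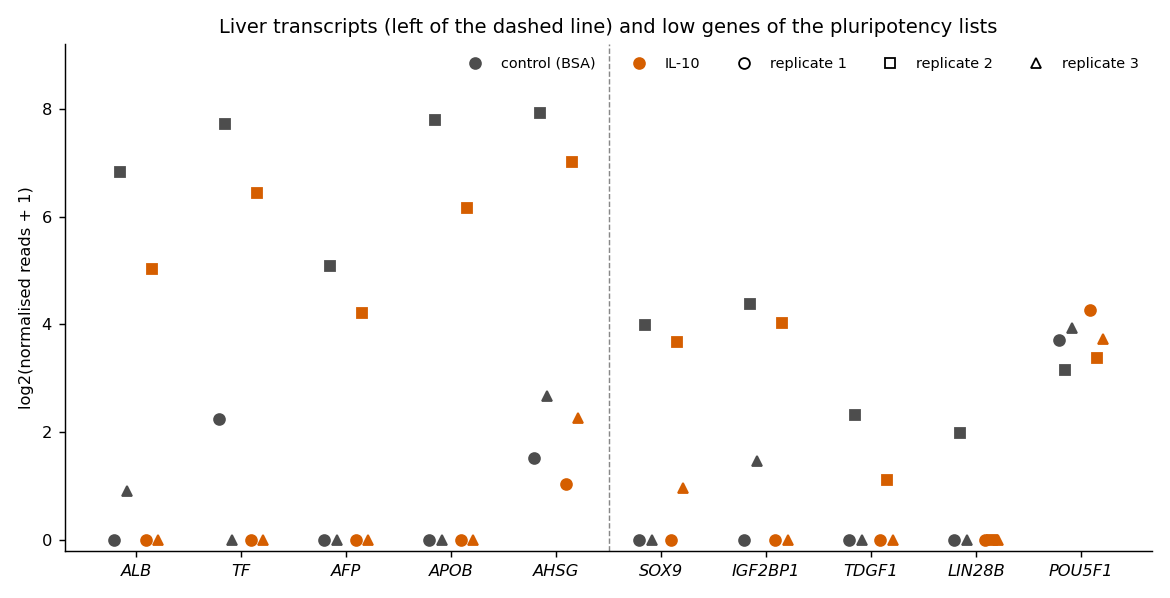
Log2(normalised reads + 1) of 5 liver genes (left of the dashed line) and 5 low genes of the pluripotency lists (right) in each library, with grey for control, orange for IL-10 and symbols for the replicate number. Squares, the libraries numbered 2, are the high points of ALB, TF, AFP, APOB, AHSG, SOX9, IGF2BP1 and TDGF1, while POU5F1 is spread over all 6 libraries at 7.96 to 18.2.

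Of 12 markers of pluripotent or germ cell tumour cells, 7 had a row. NANOG, DPPA4, L1TD1, ZFP42 and GDF3 had none. EPCAM, PODXL and DNMT3B, which other cell types express too, made up nearly all of the list's summed level, which was 3610 to 3952 normalised reads in control and 3707 to 4010 with IL-10. DNMT3B, a de novo DNA methyltransferase, averaged 696 ± 32.3 in control and 824 ± 208 with IL-10, within the spread. None of the 6 tested was called by limma.

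Other genes of the pluripotency network were mostly without a row or had roles outside it. Of 32 listed, 15 had a row and 13 were tested, with 0 called in either direction. The highest were MYC, at 15180 to 34174 normalised reads, and DNMT3B, MYCN and TBX3. Early-embryo genes with no row included DPPA2, DPPA3, DPPA5, UTF1, PRDM14 and TFCP2L1. The NODAL inhibitor LEFTY1, chosen after its values were seen, was present at 5.61 ± 0.810 in control and 7.88 ± 1.94 with IL-10. Of the 13 tested, 10 had a positive log2 fold change, with a median of 0.17 against 0.02 over all genes tested. The median log2 ratio was -0.05, 0.42 and -0.04 in pairs 1, 2 and 3, so the positive median came from pair 2, which holds IL-10 replicate 2.

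POU5F1, SOX2 and KLF4 each belong to a family with other genes that Kasumi-1 expressed at a far higher level. Among POU genes, per kilobase of exon over the 6 libraries, POU4F1 stood at 302 normalised reads (278 to 313) and POU2F1 at 149 (114 to 170), against 4.27 for POU5F1. POU4F1 is a neuronal factor known to be expressed in leukaemia with this fusion, and POU2F1 is a broadly expressed factor. Among SOX genes SOX12 stood at 582 (459 to 1001) and SOX4, a factor of lymphoid progenitors, at 579 (525 to 738), against 0.831 for SOX2. Among KLF genes KLF16 stood at 815 (599 to 1532) and KLF6 at 199 (184 to 214), against 0.265 for KLF4. In all 3 families the lowest library of each named relative lay above the highest library of the low member. SALL2 stood at 0.496 (0.185 to 1.19) and SALL1 at 0.128, so no gene of the SALL family exceeded 2 normalised reads per kilobase in any library.

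**Figure D3:**
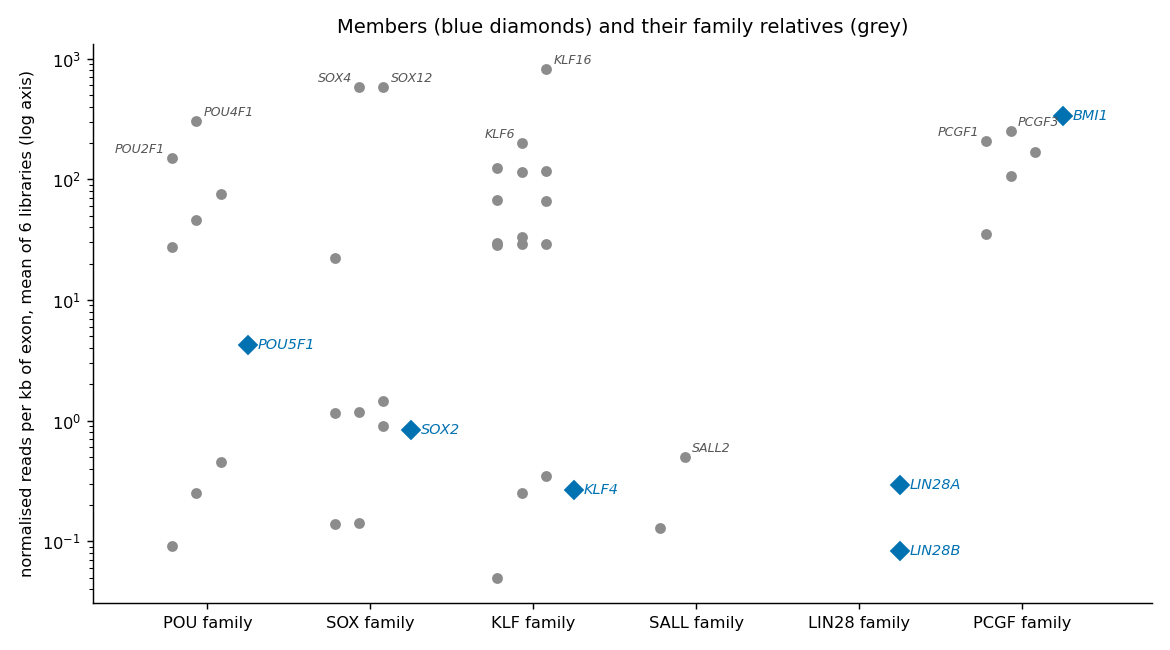
Mean normalised reads per kilobase of exon over 6 libraries (y axis, log scale) for members (blue diamonds) and other genes of their families with reads (grey dots), with the highest relatives named. BMI1, at 332, is the highest of the PCGF family plotted, while POU5F1, SOX2 and KLF4 lie well under the highest gene of theirs.

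None of these families held a gene called by limma: 6 POU genes, 6 SOX genes and 13 KLF genes were tested beside the members, and the 3 medians of the log2 fold change were 0.08, 0.17 and 0.02. KLF2, a quiescence factor of blood cells that can stand in for KLF4 in stem cells, was the only one of them whose groups did not overlap, against 5.87% of all genes tested. It is named after its values were seen. KLF2 held 42.9, 46.7 and 48.9 normalised reads in control and 51.3, 149 and 67.4 with IL-10. IL-10 replicate 2 was 2.90 times the mean of the other 5. The log2 fold change of KLF2 was 0.79 (95% interval -0.06 to 1.64), with an adjusted p of 0.982 in limma and log2 ratios of 0.25, 1.65 and 0.45 in the pairs.

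BMI1 (ENSG00000168283, chr10:22321211-22331484, plus strand, protein-coding) was the member with depth enough for a small counting error. It held 1414, 1566 and 1513 normalised reads in control and 1449, 1130 and 1470 with IL-10. IL-10 replicate 2 was the lowest of the 6, and the other IL-10 libraries lay within the control range. The means were 1498 ± 77.1 and 1350 ± 191 (SD, n = 3). The log2 fold change was -0.16 (SE 0.17, 95% interval -0.54 to 0.22), with an adjusted p of 0.982 in limma. Within the pairs the log2 ratio of BMI1 was 0.04, -0.47 and -0.04. Leaving out IL-10 replicate 2 moved the log2 fold change to -0.04, and pairs 1 and 3 alone, with the replicate as a block, gave -0.003. Other settings made it larger: -0.22 without IL-10 replicate 1 and -0.23 without IL-10 replicate 3. With equal library totals it was -0.26, where the median of all genes was -0.08. The count of reads, 4793 in control and 3865 with IL-10, gives a ratio of 0.910 after scaling by the size factors, with a counting interval of 0.872 to 0.949, which leaves out the spread between libraries. Counting error was thus small beside the difference between IL-10 replicate 2 and the rest.

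IL-10 replicate 2 was low in transcripts poor in GC. Relative to the other 5 libraries averaged, the median deviation of its genes (mean of 50 or more) ran from -0.71 on the log2 scale in the 1158 lowest in GC content to 0.86 in the 1158 highest. BMI1, with 39.1% GC in its longest transcript, deviated by -0.39, or 0.763-fold, where genes of 38.4% to 40.8% GC had a median of -0.50 and a 25th to 75th percentile of -0.81 to -0.23. After a correction of each library for GC content the log2 fold change of BMI1 was 0.001. The 3 genes most like BMI1 in profile over the 6 libraries were FAM204A, SNHG1 and ZFR, at a root-mean-square difference of 0.013, 0.025 and 0.026 on the centred log2 scale, where the median of all genes was 0.412. Each had IL-10 replicate 2 as its lowest library, which follows from choosing them by likeness to BMI1. For POU5F1 the nearest were a gene without a symbol (ENSG00000254671), SYT12 and LYG2, at 0.062, 0.098 and 0.104 against a median of 0.508, of which the first 2 averaged only 2.0 and 1.8 normalised reads.

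**Figure D4:**
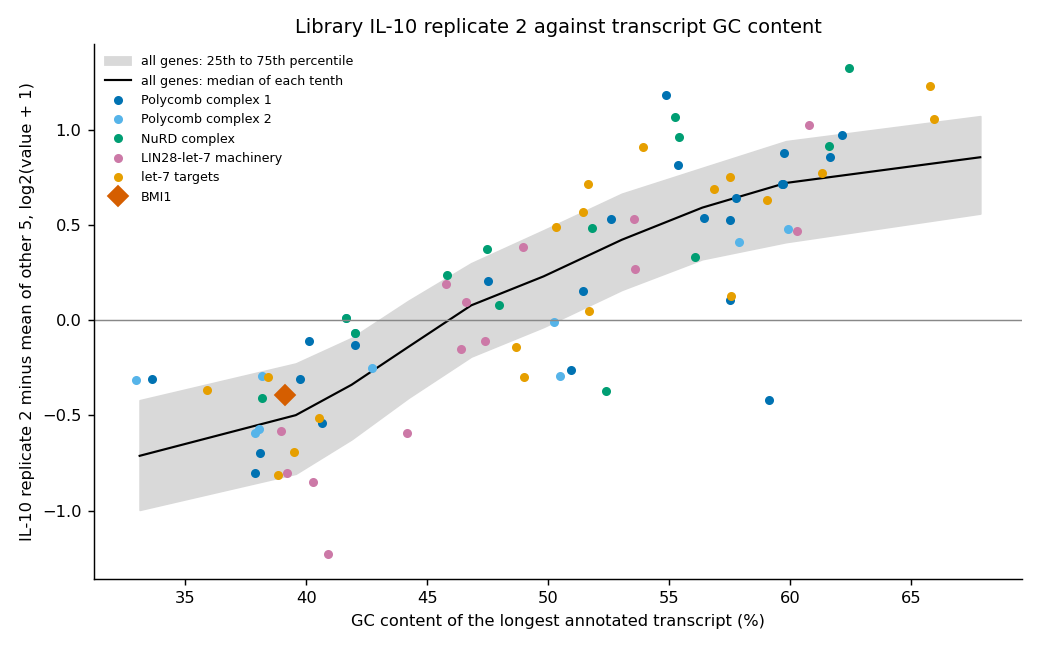
Log2 level in IL-10 replicate 2 minus the mean of the other 5 (y axis) against GC content of the longest annotated transcript in percent (x axis), for BMI1 (orange diamond) and genes of 5 lists with a mean of 50 or more (dots), over the median (line) and the 25th to 75th percentile (band) of all such genes. BMI1, at 39.1% GC and -0.39, lies within the band, and list genes rise from left to right with it.

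Of the neighbours of BMI1 on chromosome 10, none was called. COMMD3, the other gene of the read-through, held 393, 362 and 431 normalised reads in control and 389, 313 and 452 with IL-10. IL-10 replicate 2 was again its lowest library, 0.774 times the mean of the other 5. The read-through shares 1000 of the 4283 exon bases of BMI1 (23.3%), so reads in those bases could belong to either transcript. SPAG6, a sperm flagellum gene beyond BMI1, had groups that did not overlap, at 5.59, 2.98 and 3.56 against 1.07, 2.35 and 2.85. These values came from 1 to 6 reads per library, and its adjusted p was 0.982 in limma. That is 1 of the 3 neighbours tested, where 5.87% of all genes tested did not overlap. SPAG6 is named after its values were seen.

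BMI1 works within Polycomb repressive complex 1, and all 23 other genes of that list had a row and were tested. Per kilobase BMI1 was the highest of its PCGF paralogues, at 332 normalised reads against 250 for PCGF3 (237 to 281), 207 for PCGF1 (167 to 322), 169 for PCGF6, 106 for PCGF2 and 35.1 for PCGF5. The library ranges of BMI1 (264 to 366), PCGF3 and PCGF1 overlapped through IL-10 replicate 2, which was lowest of all libraries in BMI1 and highest in PCGF3 and PCGF1. The catalytic subunits RING1 and RNF2 stood at 604 and 159 per kilobase. These and the PCGF genes are named for their role beside BMI1, a choice made with their values known. Among the list's most abundant genes by normalised reads were CBX2, CBX6 and KDM2B. CBX2 and CBX6 read the Polycomb histone mark, and KDM2B brings a form of the complex to CpG islands. None of the 23 was called, 15 had a positive log2 fold change, and the median was 0.11. The median log2 ratio was 0.01, 0.29 and -0.01 in pairs 1, 2 and 3, and IL-10 replicate 2 was the farthest library in 19 of the 23 genes, against the 71.6% of all genes given above. CBX2, for example, stood at 3924, 3971 and 3639 in control and 3819, 6261 and 3703 with IL-10. PHC2, chosen after its values were seen, was the only gene of the list whose groups did not overlap, at 851 to 865 in control and 926 to 1454 with IL-10. That is 1 of 23, where 5.87% of all genes tested did not overlap.

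Polycomb repressive complex 2 writes the histone mark. All 11 of its genes were tested, none was called, and 5 had a positive log2 fold change with a median of -0.003. RBBP7, RBBP4, SUZ12 and EZH2 were the most abundant. EZH2, the methyltransferase, averaged 3416 ± 57.3 in control and 3271 ± 366 with IL-10. SUZ12 stood at 4251, 4679 and 4311 in control and 4405, 2941 and 4243 with IL-10, so that IL-10 replicate 2 was again the farthest library. Of the INK4 locus, CDKN2A, which encodes p16 and ARF, was abundant beside BMI1, at 2423 ± 153 in control and 2919 ± 907 with IL-10. IL-10 replicate 2 held 3966 and the other IL-10 libraries 2426 and 2364, inside or near the control range of 2246 to 2514. CDKN2B stood at 22.8 ± 3.61 and 18.9 ± 6.40. None of the 3 genes at the locus was called by limma.

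The partners through which SALL4 acts were present although SALL4 had no row. All 14 NuRD genes were tested and none was called. The most abundant were the remodeller CHD4 (9260 to 10715 normalised reads in control, 9184 to 13829 with IL-10), the deacetylase HDAC1, CHD3 and RBBP7. The list's median log2 fold change was 0.08, with pair medians of 0.03, 0.21 and -0.002. CHD3, chosen after its values were seen, was the only NuRD gene without overlap between groups, 1 of 14 against 5.87% of all genes tested.

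The let-7 machinery, which spans the processing that LIN28A and LIN28B block, partners of LIN28 and effectors of silencing, was expressed throughout. All 14 of its genes were tested: AGO2, an effector of microRNA silencing, was the most abundant, followed by the nuclear exporter XPO5, the nuclease DROSHA and TUT4, a uridyltransferase that works with LIN28. None was called, 5 had a positive log2 fold change, and the median was -0.03. TRIM71, itself a stem-cell protein and let-7 target, stood at 727 to 907 in control and 715 to 773 with IL-10. AGO3 was the only gene of the list without overlap between groups (1 of 14, against 5.87% of all genes tested), at 946 to 982 in control and 636 to 942 with IL-10. Both were chosen after their values were seen. Host genes of let-7 were led by HUWE1, and 3 of 4 had a row, none called. Mature microRNAs were not measured.

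Of the genes that let-7 is known to repress, 19 of 20 had a mean of at least 50 normalised reads, IGF2BP1 being the exception. All 20 were tested, none was called, 14 had a positive log2 fold change, and the median was 0.12. MYC, the architectural protein gene HMGA1 (13780 to 14680 in control, 13636 to 24383 with IL-10), the kinase gene CDK6 (11136 to 11529 and 6948 to 11486) and IGF2BP2 were the highest. HMGA1 was highest and CDK6 lowest in IL-10 replicate 2, at 61.3% and 39.5% GC. The median log2 ratio of the list was -0.02, 0.33 and -0.01 in pairs 1, 2 and 3. IL-10 replicate 2 was the farthest library in 15 of the 19 targets with a mean of at least 50.

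**Figure D5:**
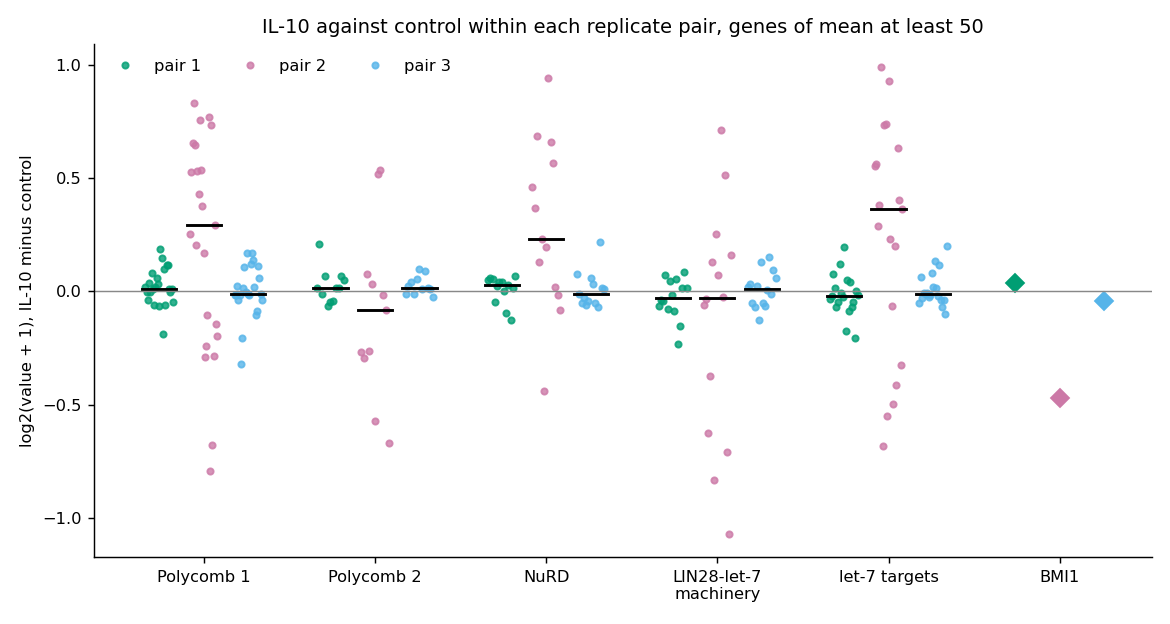
Log2(normalised reads + 1) with IL-10 minus control within each replicate pair (y axis) for genes of mean 50 or more in 5 lists (dots, with black bars for the median) and for BMI1 (diamonds). Pairs 1 and 3 lie close to 0 in every list, while pair 2 spreads widely, with BMI1 at -0.47.

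For the members as a group, 4 of 9 passed the filter (BMI1, POU5F1, SOX2 and LIN28A), 2 had a row and did not pass (KLF4 and LIN28B), and 3 had no row. The count called by limma was 0 (background 0.0%), the count with an unadjusted p under 0.05 was 0 (background 1.57%), and the count without overlap between groups was 0 (background 5.87%). POU5F1 and LIN28A had a positive log2 fold change and BMI1 and SOX2 a negative one. Over all genes tested the median log2 fold change was 0.02, and 11407 of 21946 were positive. With pairs 1 and 3 alone and the replicate as a block, limma called 11 of 20308 genes (0.0542%), none of them a member. The intervals above bound a change of BMI1 to between -0.54 and 0.22 on the log2 scale. Those of SOX2 hold a 2-fold difference in either direction, and those of POU5F1 a 2-fold increase.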

How the data were processed

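RNA of 6 Kasumi-1 libraries (3 control, 3 IL-10) was extracted with Trizol and made into Illumina TruSeq libraries from 1 ug of total RNA, per the labels' protocols. The authors deposited 1 table, named as FPKM, whose values are a normalised signal: each is a read count divided by the library's size factor (0.851 to 1.12), since 100% of values were whole multiples of 1 step within 0.01 read. GRCh38, hg38 and edgeR 3.18.1 stand in the submitters' processing notes without a role. No source used here gives the aligner, counter, annotation or strand. The step of control replicate 2, 0.994, lies too close to 1 for the unit check, so edgeR was also run without it.

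Of the identifiers, 27052 matched GENCODE 29, which gave coordinates and exon lengths, and 26883 the table of gene names. The main test was two-sided, on log2(value + 1), by limma 3.58.1 in R 4.3.3 with an intensity trend, over 21946 genes reaching 1 in 3 or more libraries. Recovered reads were tested with edgeR 4.0.16 (quasi-likelihood) and with DESeq2 1.42.0, and the scripts were tested on simulated data. The other alternatives were pseudocounts, filters, scalings, no trend, sample weights, a GC correction (loess, span 0.5), the replicate block and leaving out libraries. The floor for a count of 0 was 3 reads per library, and read intervals are 95% exact.

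The members and 18 further gene lists were chosen with earlier results of these data known, so nothing here is independent of them. Named were all members, POU5F1 pseudogenes, COMMD3, of each list the counts and at most 4 genes of highest mean, and the 3 genes most like POU5F1 and BMI1. Others are marked as chosen after their values were seen.

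Pairing was checked before calls were compared. Libraries of the same number deviated together from their group means, with correlations of 0.367, 0.605 and 0.726 over 11605 genes of mean 50 or more, and were treated as pairs. Control replicate 1 with IL-10 replicate 3 gave 0.208 and control replicate 3 with IL-10 replicate 1 gave 0.176, and the others -0.692 to -0.312. The labels give only a shared number, so the pairing rests on these correlations.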

Additional observations from a re-analysis of the deposited data

How the results depend on the processing

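No member was called in any of the 23 alternatives, among them edgeR, DESeq2, the replicate block, and each library left out. The count over all genes stayed at 0 in 22 of them, the replicate block included (0 called, so the block changed no call), and was 11 in pairs 1 and 3 with the replicate block. It was 0 whichever single library was left out. The sign of the small differences was not stable. BMI1 ran from -0.26 to 0.00098 on the log2 scale and was positive after the GC correction, with or without the replicate block (0.00098 in both). Leaving out single libraries gave -0.23 to -0.04. POU5F1 ran from -0.043 to 0.47, with -0.043 to 0.40 over single libraries left out, and was negative when control replicate 2 (-0.028) or IL-10 replicate 1 (-0.043) was left out. SOX2 ran from -0.49 to 0.21, the range over single libraries left out. It was positive with quantile normalization (0.078), without control replicate 3 (0.213), IL-10 replicate 1 (0.119) or IL-10 replicate 2 (0.083), and in pairs 1 and 3 with or without the replicate block (0.087 in both). LIN28A was positive in the 17 alternatives that tested it and missed the filter in the others. It held only 7 reads in all, and was lower with IL-10 in pair 3. The cause of these changes was not tested. Equal library totals moved the median of all genes to -0.08. The alternatives added after seeing the data were edgeR without control replicate 2, and pairs 1 and 3 without the block. Depth limits the low members most, since SOX2, KLF4, LIN28A and LIN28B held 29 reads together.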
